A study of Mus musculus with 21 samples.

Results

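The 9 genes described here mark the oligodendrocyte lineage and its product, myelin: Olig1, Olig2, Sox10, Pdgfra, Mbp, Mog, Mag, Mobp and Cnp. They were chosen by symbol, with earlier results of these data known. All 9 were found among the 40770 genes of the linc-Brn1b table and the 42760 genes of the linc-Sox2 table. RNA-seq of mouse brain compared wild type (WT) with homozygous lincRNA knockout (KO) animals. The linc-Brn1b strain, labelled linc-Brn1b+/+ or linc-Brn1b-/-, was sampled as E13.5 and as E15.5 telencephalon, and after birth as whole P7 brain. In the linc-Sox2 strain, also called Peril, it was whole brain at E18.5, labelled linc-Sox2+/+ or linc-Sox2-/-. E14.5 lung of the linc-Foxf1a strain, labelled linc-Foxf1a+/+ or linc-Foxf1a-/-, was used as a tissue without the lineage. Each group held 2 libraries, except the linc-Brn1b KO group at E15.5, for which the labels list 3. In the KO animals a lacZ reporter cassette stands in place of the lincRNA, and the lines derive from hybrid 129 and C57BL/6N embryonic stem cells crossed to C57BL/6J. The KO allele is constitutive, so the lincRNA is missing from every cell and not from oligodendrocytes alone.

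Oligodendrocytes arise from progenitors that are specified in the ventral and later the dorsal forebrain, divide and migrate under platelet-derived growth factor, and then differentiate. Olig1 and Olig2 are the basic helix-loop-helix factors of the lineage, and Sox10 is the HMG-box factor that acts with them on myelin genes. Pdgfra is the growth factor receptor of the progenitors and is lost as cells mature. Mbp, Mog, Mag and Mobp are proteins of the myelin sheath, and Cnp is an enzyme of its cytoplasmic channels that appears early in differentiation. In the mouse forebrain most myelin is laid down after birth.

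All values are FPKM, fragments scaled to transcript length and to the number of fragments mapped, so that levels can be compared between genes. The tables give 1 pooled value per group, the authors' estimate over its libraries. The spread between animals and the read depth behind a value are therefore unknown, and none of the differences below has a test, an error or an interval. A difference is given as log2(FPKM + 1) of KO minus WT, and is said to pass 1.5-fold when it reaches 0.58 on that scale in a gene with at least 1 FPKM in either group. In bulk tissue, fewer cells of a type and less RNA per cell cannot be told apart.

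The labels were checked on the targeted loci. The linc-Brn1b transcript was at 1.60, 2.50 and 0.799 FPKM in WT at E13.5, E15.5 and P7, and was listed at 0 in every KO group. The neighbouring gene Pou3f3 was lower in KO at all 3 ages, at 36.5 against 81.5 FPKM, 29.2 against 82.5 and 5.81 against 22.7. At E18.5, linc-Atp11b-4, which overlaps the Peril locus, was at 0.0109 FPKM in WT and 4.65 in the libraries labelled KO, against the direction of the label. The study also measured Peril itself by RT-PCR in E18.5 brain and reports that its level bore out the deletion. That measure is not analysed here. The groups also differed in sex. The 4 Y-linked genes followed were at 8.23 to 16.5 FPKM in WT and near 0 in KO at E13.5, and were near 0 in WT and at 2.07 to 13.2 FPKM in KO in the other 3 comparisons. Genotype and sex cannot be told apart in any comparison. The telencephalon labels were checked on 5 telencephalon markers, which summed to 422 and 508 FPKM in WT and KO at E13.5 and to 581 and 598 at E15.5. The 6 hindbrain and cerebellum markers summed to 0.954 and 0.987 FPKM at E13.5 and to 1.34 and 1.36 at E15.5. Most of this was Pcp2, at 0.926 and 0.959 FPKM and then 1.30 and 1.31, while Hoxb3 was listed at 0 in all 4 of these groups.

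The 9 genes lie on 8 chromosomes of mm9. Olig2 (chromosome 16, 91225795 to 91228922, plus strand) and the single-exon gene Olig1 (91270014 to 91272184, plus strand) are neighbours separated by 41091 bases. Sox10 spans 78985343 to 78994936 on chromosome 15 (minus strand) and Pdgfra 75548316 to 75594229 on chromosome 5 (plus strand). Mog spans 37147685 to 37160343 on chromosome 17 (minus strand) and Mag 31684202 to 31701860 on chromosome 7 (minus strand). Mobp spans 120058860 to 120090602 on chromosome 9 (plus strand) and Cnp 100436253 to 100443053 on chromosome 11 (plus strand). Mbp is the longest of the 9 at 110515 bases and has 16 annotated transcripts. Within these spans, the annotation of the same build has no gene that shares exon bases with any of the 9. Annotated Cnp runs from 100436218 to 100453043, beyond its span here, and the parts outside that span were not searched.

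The 4 myelin genes below were all lower in KO at P7, so the 250 bases before their start are shown. Sequences are from RefSeq on GRCm38.p6, a later build than that of the tables, and are written 5′ to 3′ on the gene's strand. Mag is shown at the most upstream of its 3 listed starts. Capitals mark the SOX motif ACAAAG or its reverse complement CTTTGT.
Mobp, chr9:120149492-120149741, plus strand: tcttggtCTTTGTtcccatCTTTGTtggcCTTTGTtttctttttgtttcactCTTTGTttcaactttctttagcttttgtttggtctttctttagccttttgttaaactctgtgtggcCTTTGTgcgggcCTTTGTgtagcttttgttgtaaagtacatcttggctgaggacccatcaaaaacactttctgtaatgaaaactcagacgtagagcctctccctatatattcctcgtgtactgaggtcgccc
Mag, chr7:30914923-30915172, minus strand: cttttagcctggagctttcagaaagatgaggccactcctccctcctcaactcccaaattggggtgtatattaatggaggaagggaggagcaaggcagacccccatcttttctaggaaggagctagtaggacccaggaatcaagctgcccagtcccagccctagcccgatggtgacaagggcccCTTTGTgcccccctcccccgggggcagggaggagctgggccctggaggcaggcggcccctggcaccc
Cnp, chr11:100574689-100574938, plus strand: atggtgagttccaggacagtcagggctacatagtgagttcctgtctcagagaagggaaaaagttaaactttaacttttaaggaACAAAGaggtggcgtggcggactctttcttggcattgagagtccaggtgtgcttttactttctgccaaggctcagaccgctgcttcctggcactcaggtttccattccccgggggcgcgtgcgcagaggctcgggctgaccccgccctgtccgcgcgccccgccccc
Mog, chr17:37023399-37023648, minus strand: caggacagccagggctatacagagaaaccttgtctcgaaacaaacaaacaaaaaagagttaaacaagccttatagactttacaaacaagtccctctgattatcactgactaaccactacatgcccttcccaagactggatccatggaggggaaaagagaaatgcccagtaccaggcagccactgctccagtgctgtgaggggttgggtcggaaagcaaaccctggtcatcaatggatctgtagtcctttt

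The Mobp window held 6 matches to ACAAAG on either strand, all written as CTTTGT, the nearest with its first letter 120 bases before the start. The Mag and Cnp windows held 1 match each, 67 and 167 bases before the start, and the Mog window held 0. Windows of the same length held at least 1 such match in 16.5% of 27025 genes, taking the most upstream start of each. A second SOX motif, ACAATG or CATTGT, was in 10.9% of windows and in none of these 4, while the Olig2 window held 1. The E-box CAGCTG, a palindrome, was in 12.7% of windows and in none of those of Olig2, Pdgfra, Mog, Mag, Mobp and Cnp. The 3 motifs do not overlap each other in these windows. GC content was 40.8% before Mobp, 46.8% before Mog, 57.2% before Cnp and 61.2% before Mag, against 66.8% before Olig2. A match of letters is not evidence that a factor binds there.

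Levels in WT differed by age. At E13.5, Olig2 was the highest of the 9 genes at 11.1 FPKM, with Mbp at 6.74, Cnp at 5.92, Pdgfra at 4.55, Olig1 at 2.25 and Mog at 1.44. Sox10, Mobp and Mag were under 1 FPKM, at 0.318, 0.269 and 0.138. At E15.5 the order still began with Olig2 at 6.68 FPKM, followed by Olig1 at 5.91, and Sox10 had reached 1.04. Mag (0.190 FPKM) and Mobp (0.0472 FPKM) were the 2 members under 1 FPKM at that age. At P7 all 9 genes were above 1 FPKM, and Mbp led at 292, ahead of Cnp at 74.1, Olig1 at 51.8, Mobp at 37.7, Pdgfra at 32.4, Mag at 19.0, Sox10 at 11.8, Olig2 at 11.2 and Mog at 6.89. The 2 lineage factors that neighbour each other on chromosome 16 therefore changed places: Olig1 was 0.203 times the Olig2 level at E13.5, 0.885 times at E15.5 and 4.64 times at P7. With no spread known, neighbours in these orders cannot be said to differ.

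**Figure D1:**
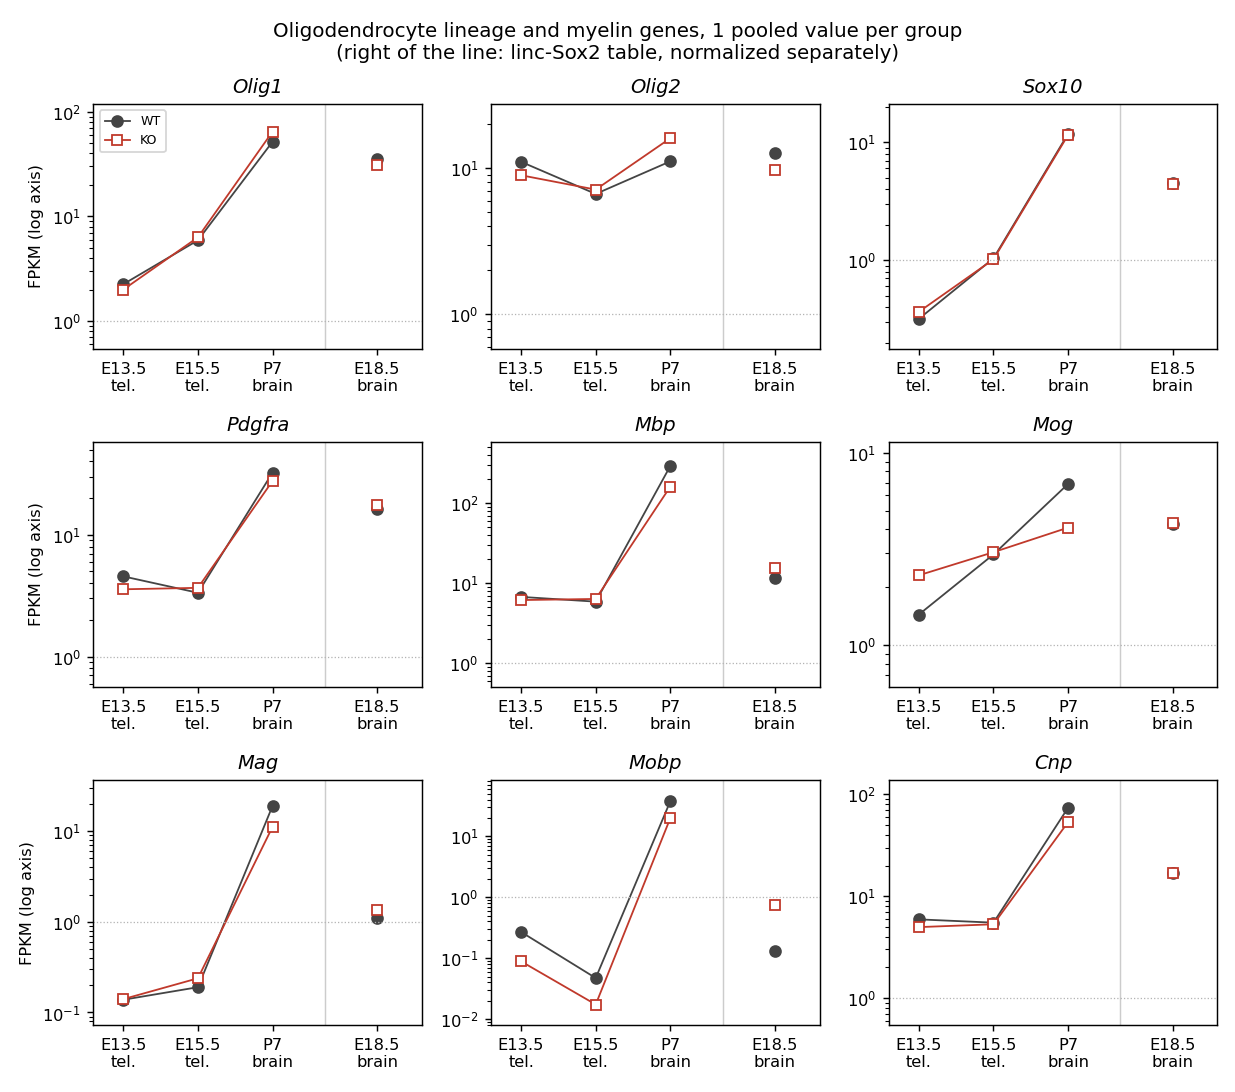
FPKM of each of the 9 genes (log axis, dotted line at 1 FPKM) in WT (filled circles) and KO (open squares), with 1 pooled value per group and no error bars; the E18.5 pair right of the line is from the linc-Sox2 table, normalized separately. The 5 myelin genes are lower in KO at P7, where Mbp is at 292 FPKM in WT and 161 in KO. Of the lineage genes, Olig1 and Olig2 (11.2 and 16.1) are higher in KO, Pdgfra is lower, and Sox10 is at 11.8 and 11.6.

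Between E13.5 and E15.5 in WT telencephalon, 3 of the 7 members with at least 1 FPKM passed 1.5-fold upward, against 8.72% of all genes. These were Olig1 (from 2.25 to 5.91 FPKM), Sox10 (from 0.318 to 1.04) and Mog (from 1.44 to 2.96), while Olig2 was lower by 1.5-fold or more (from 11.1 to 6.68). In KO, Olig1 was the 1 of 7 members past 1.5-fold upward (from 2.00 to 6.31 FPKM), against 10.4% of all genes, and Sox10 reached a difference of 0.56. In KO, 57.1% of all genes past 1.5-fold between these ages were higher at E15.5, a share that was 31.4% when each group's FPKM were rescaled to the same total. The 4 Y-linked genes summed to 49.2 FPKM at E13.5 and 0.00662 at E15.5 in WT, and to 0.0133 and 21.0 in KO. Age and sex therefore cannot be told apart in this step. The 5 leptomeningeal and vascular fibroblast markers summed to 61.2 and 8.12 FPKM in WT, and to 34.3 and 7.12 in KO. Their part in the steps of the members was not tested.

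From E15.5 telencephalon to P7 whole brain, 9 of 9 members were higher by 1.5-fold or more in WT, against 24.7% of all genes. Age and dissection cannot be told apart in this step. Mag was 100 times its E15.5 level in WT and Mbp 49.7 times, while Sox10 was 11.4 times, Pdgfra 9.72 times, Olig1 8.76 times, Mog 2.32 times and Olig2 1.67 times. Cnp went from 5.49 to 74.1 FPKM and Mobp from 0.0472 to 37.7. In KO, 8 of 9 passed 1.5-fold upward, against 25.6% of all genes, and the exception was Mog, at 3.04 and then 4.08 FPKM. The multiples of 4 myelin genes were smaller in KO than in WT, at 25.4 times for Mbp, 47.0 times for Mag, 10.1 times for Cnp and 1.34 times for Mog. That of Mobp was larger in KO, where it went from 0.0174 to 19.9 FPKM. The multiples of Mobp and Mag divide by E15.5 values far under 1 FPKM, which for Mag were 0.190 in WT and 0.238 in KO. On the log2(FPKM + 1) scale the step of Mobp was 5.21 in WT and 4.36 in KO. On that scale it was smaller in KO, as were the steps of the other 4 myelin genes. The multiples of Olig1 and Olig2 were larger in KO, at 10.3 and 2.25 times. These steps use the same P7 and E15.5 groups as the genotype comparisons and are not separate evidence. Of all genes past 1.5-fold in KO over this step, 48.7% were higher at P7, or 58.9% after rescaling.

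At P7 the comparison of genotypes asks whether loss of linc-Brn1b, a lincRNA of the neural progenitors, is accompanied by a change in the lineage after birth. All 5 myelin genes were lower in KO and 4 of them passed 1.5-fold, while the 4 genes of the lineage did not pass it in either direction. In all, 4 of 9 members passed 1.5-fold, all lower, against 4.58% of the 14521 genes compared, of which 2.42% were lower and 2.16% higher. The median difference over the 9 members was -0.46, and over all genes it was 0.01. The 2 groups also differed in regional markers, as 6 hindbrain and cerebellum genes summed to 23.3 FPKM in WT and 3.06 in KO. The part of regional makeup in the differences of the members was not tested.

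Mbp, the major cytoplasmic protein that compacts myelin, was at 292 FPKM in WT and 161 in KO, a difference of -0.85. Mobp, a small basic protein of compact myelin, was at 37.7 FPKM in WT and 19.9 in KO, a difference of -0.89. Mag, the adhesion molecule on the inner face of the sheath toward the axon, was at 19.0 FPKM in WT and 11.2 in KO, a difference of -0.71. In KO these 3 genes stood at 55.2%, 52.8% and 58.9% of the WT level. Mog, a glycoprotein of the outermost myelin layer, was at 6.89 FPKM in WT and 4.08 in KO, or 59.3%, and its difference of -0.63 was the closest to the limit. Cnp was at 74.1 FPKM in WT and 53.5 in KO, or 72.3%, a difference of -0.46 that did not pass 1.5-fold. None of the 5 myelin genes reached a 2-fold difference on the log2(FPKM + 1) scale.

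The genes of the lineage had no common direction at P7. Olig1 was at 51.8 FPKM in WT and 64.7 in KO (125%), and Olig2 at 11.2 and 16.1 (144%), differences of 0.32 and 0.49. Sox10, which is expressed from the progenitor to the mature cell, was at 11.8 FPKM in WT and 11.6 in KO. Pdgfra was at 32.4 and 27.7 FPKM, a difference of -0.22. Sox10 was the 1 member whose sign depended on the scaling, at -0.03 as deposited and 0.01 after rescaling. Summed over the 4 lineage genes the level was 107 FPKM in WT and 120 in KO, and summed over the 5 myelin genes it was 430 and 250. The ratio of the myelin sum to the lineage sum was 4.01 in WT and 2.08 in KO, and that of Mbp to Olig1 was 5.64 and 2.49.

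**Figure D2:**
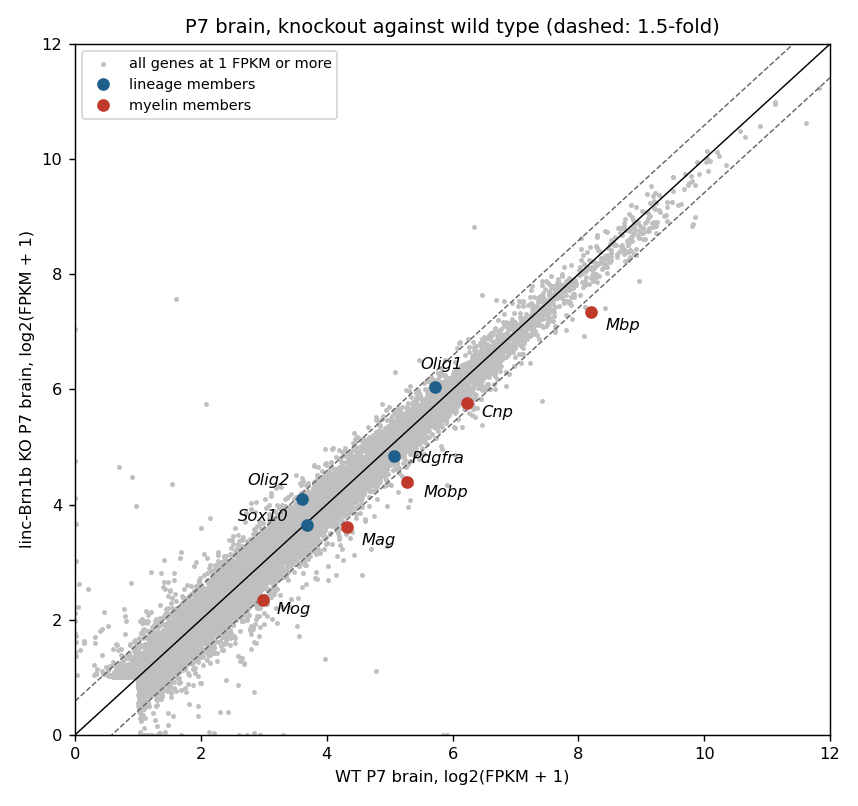
Level in KO against level in WT at P7, both as log2(FPKM + 1), for all genes with at least 1 FPKM in either group (grey) and the 9 members (blue, lineage; red, myelin); the solid line is equality and the dashed lines are 1.5-fold. Mbp, Mobp, Mag and Mog lie below the lower dashed line, among the 2.42% of genes that do.

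Other genes of the pathway were taken from 6 lists. Of 15 other myelin genes at 1 FPKM or more at P7, 6 passed 1.5-fold, all lower, and the median difference was -0.35. The largest difference was that of Mal, a raft proteolipid of myelin (5.93 FPKM in WT, 2.36 in KO). Others past the limit were Cldn11, the tight junction protein of the sheath (24.4 and 14.6), Ugt8a, which makes galactosylceramide (13.2 and 7.81), Trf, transferrin (13.6 and 8.29), and Ermn (1.45 and 0.619). Car2 (26.9 and 29.3 FPKM) and Gpr37 (5.02 and 5.77) were the 2 of 15 that were higher in KO, without passing 1.5-fold. The list is thus in the direction of the 5 myelin members, with a smaller share past the limit. It was chosen with earlier results of these data known and comes from the same groups, so it is not separate evidence.

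Of 7 premyelinating genes, Gpr17, an orphan receptor of the committed progenitor stage, passed 1.5-fold upward, at 14.7 FPKM in WT and 25.1 in KO. The other 6 did not pass, among them Itpr2 at 3.90 and 3.16 FPKM. Of 10 other progenitor genes Vcan, a matrix proteoglycan, passed downward (18.2 and 11.7 FPKM), though not after rescaling, and Neu4 (0.896 and 1.42) came next. Cspg4, the NG2 proteoglycan of the progenitors, was at 4.84 and 6.01 FPKM. Of 8 other lineage factors St18 passed downward (3.41 and 1.60 FPKM), and Myrf, the factor that switches on myelin genes and is listed under its older name Gm98, was next at 4.08 and 2.74. None of 9 ligands and receptors of specification passed, the largest differences being those of Gli1 (1.75 and 0.949) and Gli2 (1.15 and 0.694), and Gli1 passed downward after rescaling. None of 7 inhibitors of differentiation passed, the largest being Id2 (137 and 97.2 FPKM) and Id4 (31.6 and 25.0).

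Among markers of other cells and regions, some were lower in KO at P7, as the myelin genes were, and others were higher. All 4 hindbrain and cerebellum markers at 1 FPKM or more were lower in KO past 1.5-fold. Pcp2, a Purkinje cell gene, was at 14.7 FPKM in WT and 1.48 in KO, Barhl1 at 4.25 and 0.939, En2 at 1.87 and 0.577, and Hoxb3 at 1.54 and 0.0221. The other 2 of the list, Gabra6 and Hoxb4, were at 0.519 and 0.377 FPKM in WT and at 0.0324 and 0.00772 in KO, so the summed level of the 6 was 23.3 in WT and 3.06 in KO. None of 5 telencephalon markers passed, with sums of 123 and 126 FPKM. The hindbrain is myelinated before the forebrain, and the part of these regions in the myelin difference was not tested.

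Of 5 leptomeningeal and vascular fibroblast markers, Col1a2 (21.0 and 13.2 FPKM) and Lum (3.66 and 2.08) passed downward, with sums of 63.1 and 48.2. Of 5 astrocyte markers Aldh1l1 was lower (39.3 and 19.4) and Slc1a2 higher (67.7 and 111). Of 5 choroid plexus markers Folr1 passed downward (5.20 and 3.12 FPKM). None of 4 neuron, 5 microglia, 4 ganglionic eminence and 3 red blood cell markers passed, though Hba-a2 of the last list (49.3 and 73.0 FPKM) passed upward after rescaling. The part of these cells in the differences of the members was not tested.

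**Figure D3:**
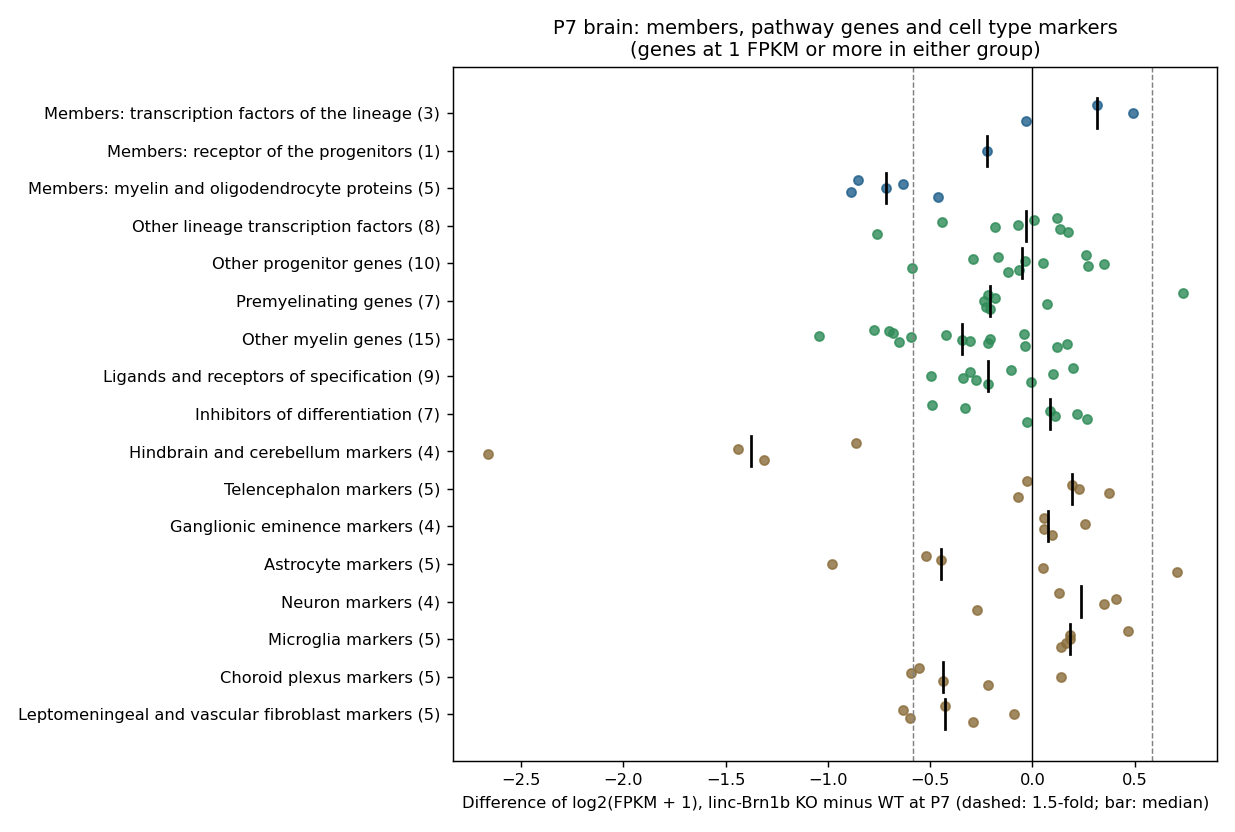
Difference of log2(FPKM + 1), KO minus WT at P7, for every gene with at least 1 FPKM in either group of the members (blue), the 6 pathway lists (green) and the marker lists of other cells (brown); the number of genes is in brackets, bars are medians and dashed lines are 1.5-fold. The myelin members and 6 of 15 other myelin genes lie toward lower values in KO, as do all 4 hindbrain and cerebellum markers.

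In the telencephalon the same genotype comparison gave no member past 1.5-fold. At E13.5, 0 of the 6 members with at least 1 FPKM passed, against 7.23% of all genes. Olig2 was at 11.1 FPKM in WT and 8.97 in KO, Pdgfra at 4.55 and 3.57, Cnp at 5.92 and 4.97, Olig1 at 2.25 and 2.00, and Mbp at 6.74 and 6.15. Mog was the 1 of 6 that was higher in KO, at 1.44 and 2.31 FPKM, a difference of 0.44. The median over the 9 members was -0.12, against 0.06 for all genes. Rescaling moved the median of all genes to 0.24, that of the members to 0.01 and Mog past 1.5-fold, so the small negative values of Olig1 and Mbp changed sign. Of all genes past 1.5-fold, 22.7% were higher in KO as deposited and 66.4% after rescaling.

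Of the pathway lists at E13.5, 1 of 9 other myelin genes passed, Cldn11, at 9.96 FPKM in WT and 3.90 in KO. Beside it, 4 of 5 fibroblast markers were lower past 1.5-fold, among them Lum (12.0 and 4.80 FPKM) and Dcn (13.2 and 6.68), with sums of 61.2 and 34.3. Of 5 microglia markers C1qa and C1qb were lower, with list sums of 18.4 and 12.1, and of 3 red blood cell markers Hbb-b1 was lower (106 and 34.8 FPKM). The part of these cells in the level of Cldn11, a gene that fibroblasts of the meninges also express, was not tested. Nor was their part in the values of the members at this age, Pdgfra among them. No gene of the other 5 pathway lists passed as deposited. After rescaling 1 more myelin gene (Ugt8a), 1 progenitor gene (Bcan), 1 premyelinating gene (Bcas1) and 1 inhibitor (Sox5) passed upward.

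At E15.5, 0 of the 7 members with at least 1 FPKM passed, against 0.564% of all genes, and the groups differed little for any of them. Olig1 was at 5.91 FPKM in WT and 6.31 in KO, Olig2 at 6.68 and 7.15, Sox10 at 1.04 and 1.02, and Pdgfra at 3.34 and 3.66. Mbp was at 5.87 and 6.35, Mog at 2.96 and 3.04, and Cnp at 5.49 and 5.30. The largest difference of these 7, that of Pdgfra, was 0.10, and the median over the 9 members was 0.06. None of the pathway genes passed 1.5-fold at this age. Choroid plexus markers differed between the groups, with Ttr at 231 FPKM in WT and 1.39 in KO and list sums of 241 and 2.29. Their part in the values of the members was not tested.

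**Figure D4:**
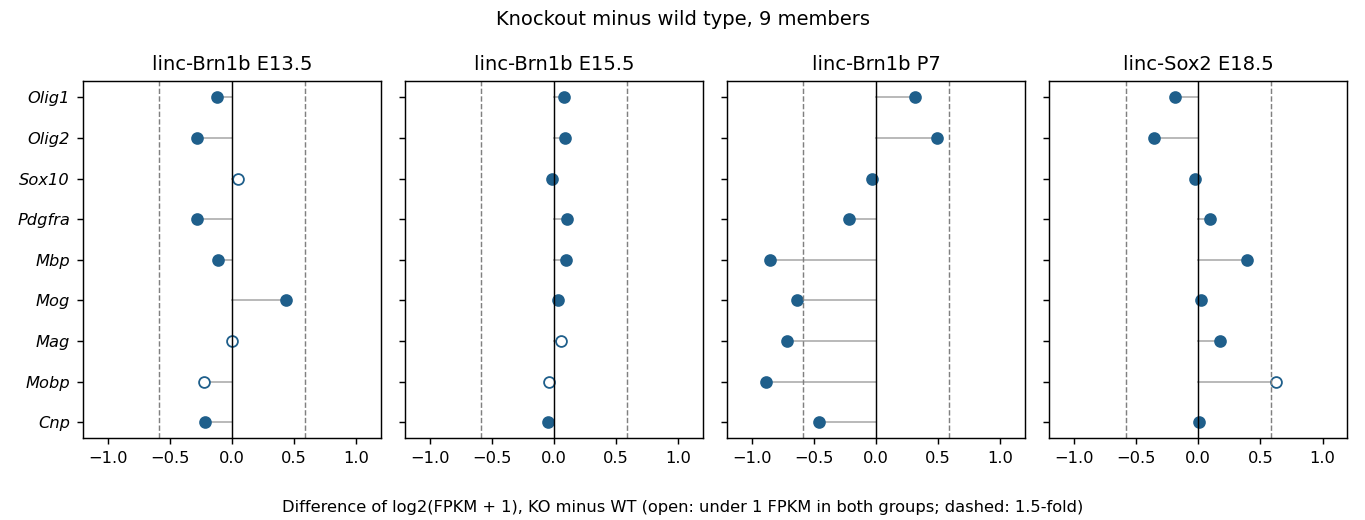
Difference of log2(FPKM + 1), KO minus WT, of the 9 members in each of the 4 comparisons; open points are genes under 1 FPKM in both groups and dashed lines are 1.5-fold. Filled points lie within the dashed lines everywhere but at P7, where Mbp, Mog, Mag and Mobp are past the lower line.

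In whole brain at E18.5 from the linc-Sox2 strain, 0 of the 8 members with at least 1 FPKM passed 1.5-fold between WT and the libraries labelled KO, against 1.98% of all genes. Olig1 led the order in both groups, at 35.6 FPKM in WT and 31.1 in the libraries labelled KO. Olig2 was at 12.8 and 9.80 FPKM, the largest of the lower values with a difference of -0.36, and Mbp at 11.5 and 15.4, the largest of the higher ones at 0.39. The groups were close for Sox10 (4.54 and 4.43 FPKM), Mog (4.24 and 4.31), Pdgfra (16.4 and 17.6) and Cnp (16.9 and 16.9). Mag was at 1.09 and 1.37 FPKM. Mobp was under 1 FPKM in both, at 0.131 and 0.748, and its difference of 0.63 was not counted.

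The median over the 9 members at E18.5 was 0.02, against 0.00 for all genes. None of the genes of the 6 pathway lists passed, the largest differences being those of Cldn11 (15.6 FPKM in WT and 11.5 in the libraries labelled KO) and Pcdh15 (3.01 and 4.08). Of 4 hindbrain and cerebellum markers with at least 1 FPKM, 3 were lower in the libraries labelled KO and 1 was higher. The summed level of all 6 on that list was 16.1 FPKM in WT and 11.9 in the libraries labelled KO. Pcp2 was lower past 1.5-fold (6.34 and 2.39), while Hoxb3 was higher (1.27 and 2.30). Hoxb4, under 1 FPKM in both groups, was also higher (0.151 and 0.731). All 5 telencephalon markers were higher, with sums of 206 and 236 FPKM. Of 3 red blood cell markers, Hba-a2 (131 and 86.7 FPKM) and Hbb-b1 (89.2 and 52.8) were lower in the libraries labelled KO past 1.5-fold. After rescaling, which brought Mobp above the minimum, Mobp, Hoxb3 and Hoxb4 passed 1.5-fold upward. The part of the regional makeup of the samples in the Mobp value was not tested.

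The lung table of the linc-Foxf1a strain was normalized separately. Olig2 and Mobp were listed at 0 FPKM in both genotypes there, Olig1 was at 0.0173 in WT and 0.00993 in KO, and Mog and Mag were under 0.2 FPKM. Pdgfra, which lung mesenchyme also expresses, was at 35.0 and 32.7 FPKM, Cnp at 9.52 and 9.41, Mbp at 5.33 and 5.20, and Sox10 at 0.861 and 0.882. Cnp, Mbp and Pdgfra were thus measured in a tissue that lacks the lineage, while in WT telencephalon at E13.5 and E15.5 they were at 3.34 to 6.74 FPKM. Olig1, Olig2 and Mog were above their lung level in every brain group, with the reservation that the tables were scaled separately.

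Genes with a pattern like that of the members were sought among 8382 genes that reach 10 FPKM in 1 of the 6 linc-Brn1b groups. The measure was the root mean square distance between profiles of log2(FPKM + 1), each centred on its own mean over the 6 groups. The 5 nearest to the mean of the lineage members were Habp4, Cbln4, Lrrc3b, Baiap3 and Dbndd2, at distances of 0.05 to 0.09. The lineage members themselves were farther from it, with Pdgfra at 0.24, Sox10 at 0.26, Olig1 at 0.66 and Olig2 at 0.93. These 5 genes are thus like the mean and not like any single lineage member. The 5 nearest to the mean of the myelin members were Gpc5, Slc4a4, Lgi3, Nefh and Abhd3, at 0.17 to 0.19. None of these 10 is on the lists, and the myelin-like ones were less different by genotype at P7 than Mbp, for example Gpc5 at 13.6 FPKM in WT and 11.6 in KO and Nefh, a neurofilament gene, at 15.4 and 14.4. Among the members, Mag (0.10) and Cnp (0.13) were closest to the mean of their own group and Mog was farthest. Both searches rest on 6 values that rise mainly at P7, so likeness here means a similar step between ages.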

How the data were processed

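RNA was sequenced on a HiSeq instrument as paired 101 bp reads from 21 libraries, of which 10 groups in 3 tables were used. The authors used TopHat2 for alignment to mm9, Cufflinks (2.0.2 in the submitters' processing notes) for assembly and Cuffdiff2 for expression. The FPKM values deposited by the authors are 1 pooled estimate per group, scaled across libraries. The tables hold 0 columns of values per sample, so depth and spread are unknown and no test or interval was computed. The tables also hold the authors' own fold changes, test statistics, p-values and q-values, which were not used. Tables were normalized separately, and groups were compared within a table.

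From the FPKM, log2(FPKM + 1) differences were computed in Python 3.11.15 (pandas 2.3.3, numpy 2.4.6), as KO minus WT or later minus earlier age. On this scale the change of low genes is understated. A gene was counted when it had at least 1 FPKM in either group and passed 1.5-fold. The members and gene lists were chosen with earlier results of these data known. Named genes are the 9 members, up to 2 genes per list and comparison with the largest difference, and the 5 nearest profiles; Cspg4, Cldn11, Ugt8a, Trf, Ermn, Car2 and Gpr37 at P7 were chosen after their values were seen. Some genes that this rule selects, and 1 marker list, are not reported here. Nkx6-2 and Tmem10 were not found under these names. Tmem10 is another name of Opalin, which was found and is on the list of other myelin genes. Positions are 1-based on mm9 with GENCODE annotation of the same build. Promoters were matched by symbol in RefSeq for 6 of 9 members, not for Olig1, Sox10 and Mbp, which have no sequence shown here. The call rule was tested on simulated data with planted changes larger than the limit. That checks the code, and not how often the rule errs in these groups. Alternatives were a pseudocount of 0.1, other minimums and folds, centring on the median of all genes, and rescaling all groups of a table to an equal sum.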

Additional observations from a re-analysis of the deposited data

How the results depend on the processing

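Differences without a spread were taken as unmoved when they changed by less than 0.1 (log2), and counts when they stayed within 1.5 times. Of 60 alternative values for counts and medians, 47 were unmoved and 13 moved, and of 108 for single members 91 and 17. No member past 1.5-fold at P7 changed sign under a pseudocount of 0.1, centring or rescaling. The count at P7 of 4 became 0 at a fold of 2. The count at E13.5 of 0 became 1 with a pseudocount of 0.1, with a looser fold and after rescaling. The count at E18.5 of 0 became 1 with no minimum and after rescaling, and 2 with a looser fold. Rescaling moved the median member difference at E13.5 from -0.12 to 0.013, that of E15.5 against E13.5 in KO from 0.078 to -0.081, and those of P7 against E15.5 to 3.23 in WT and 3.38 in KO; a pseudocount of 0.1 gave 3.39 and 3.34 there. No paired analysis was possible because the tables hold 1 pooled value per group, and for the same reason leaving out single libraries was impossible. Over all genes, calls at P7 numbered 665, or 1214 with a pseudocount of 0.1, 1210 after rescaling, 397 with a minimum of 5 FPKM, 155 at a fold of 2 and 2799 at a looser fold. Read depth is unknown, and genes under 1 FPKM in both groups were left out of the counts past 1.5-fold.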
